A study of Mus musculus with 12 samples.

Results

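Notch signalling was read from 10 genes: the receptors Notch1, Notch2 and Notch3, the ligands Dll1, Dll3 and Jag1, and the target genes Hes1, Hes5, Hey1 and Heyl. They were chosen by gene symbol, with every probe that carries the symbol, which gave 12 probes of the 45281 on the array and 10 of its 28908 genes. Illumina BeadChip arrays were used to measure RNA from mouse medulloblastoma of the SHH subgroup, a cerebellar tumour driven by Sonic Hedgehog signalling. The metastatic tumours (A1G metastatic, 4 arrays) and the primary tumours (A1G primary, 4 arrays) came from Math1-cre;A1G;Ptch1+/- mice, and a further set of primary tumours came from Ptch1+/- mice (Ptch1het, 4 arrays). All 3 groups thus carried a Ptch1+/- allele. Math1-cre places Cre recombinase under the promoter of Math1 (Atoh1), a transcription factor of cerebellar granule neuron progenitors, and the series' design text names ATOH1 as a driver of these tumours together with SHH signalling. What A1G stands for, the site from which metastases were taken, the age of the mice and whether replicates were separate animals are not given in the labels, so p-values measure the spread between these arrays only. For A1G metastatic replicates 2 and 3 the genotype label also states the tumour kind, which it does not for replicates 1 and 4.

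In the Notch pathway, ligands of the Delta and Jagged families on one cell bind Notch receptors on its neighbour, and cleavage by ADAM proteases and gamma-secretase frees the receptor's intracellular domain. That domain enters the nucleus, joins the DNA-binding protein Rbpj and a Mastermind coactivator, and switches on genes of the Hes and Hey families, which encode repressors of the basic helix-loop-helix class. In the developing cerebellum, Notch2 is known from granule neuron progenitors, while Notch3 and Heyl are known from the mural cells of blood vessels in many tissues and Hes5 from neural progenitors and glia.

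All signals below are log2 of the background-corrected, quantile-normalized intensity, and differences are on the same scale. The median of every array was 7.05, and a signal at or below it was taken as not resolved from background. A gene was tested when its probe was above that median on at least 4 of 12 arrays, which held for 9 of the 10 genes and for 16724 genes in all. It was called when the adjusted p of limma's moderated test (Benjamini-Hochberg over those 16724 genes) was under 0.05. Signals of different probes are not comparable as amounts of RNA, so levels are compared only between groups for the same probe. In whole tumours, fewer cells of a type and less RNA per cell cannot be told apart.

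Correlations between arrays of 1 group lay between 0.964 and 0.985. The first principal component, with 34.8% of the variance, set the A1G metastatic arrays (-64.4 to -30.4, in arbitrary sign) apart from the other 8 arrays (15.3 to 32.6). Of 10 granule progenitor markers, 7 were above the array median on all A1G metastatic and all A1G primary arrays and 6 on all Ptch1het arrays. The defining markers Atoh1, Mycn and Gli1 were above it on 0 arrays of any group and were thus not resolved from background. Whether their RNA was absent or their probes did not report it was not tested. Summed signals of the Schwann cell markers (18294 to 36013 in A1G metastatic, 4420 to 9610 in A1G primary and 2399 to 7230 in Ptch1het, linear units) and of the peripheral neuron markers (22772 to 55682, 1063 to 1399 and 1007 to 2303 in the same groups) did not overlap between metastatic and primary tumours. Nor did those of meningeal fibroblast markers (23744 to 40424, 2761 to 8991 and 4489 to 13183) or of Hox genes of spinal cord and hindbrain (4898 to 8200, 768 to 892 and 827 to 863). In metastatic against A1G primary tumours 6 of 8 tested Schwann cell, 7 of 7 peripheral neuron, 5 of 9 meningeal fibroblast, 6 of 6 skeletal muscle, 7 of 8 Hox and 1 of 8 microglia and macrophage markers were called higher. Of oligodendrocyte precursor markers 5 of 7 and of astrocyte markers 1 of 9 were called lower, and 0 of 7 granule progenitor markers were called. Among all 16724 genes tested, 749 were called higher and 124 lower. Mural and endothelial markers are given below. Skeletal muscle sums lay at 1521 to 61611 in A1G metastatic, 866 to 1381 in A1G primary and 980 to 1886 in Ptch1het tumours. The part of these cells in the results on the Notch genes was not tested.

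Of the promoters of these genes, 2 are shown, those of Hes5, the target gene that was lower in A1G metastatic than in Ptch1het tumours, and of Notch3, the receptor whose values in metastatic and primary A1G tumours did not overlap. RefSeq promoters (assembly GRCm38.p6, from 250 bases before to 50 after the gene's start) were at hand for 7 of the 10 genes. Hes1, Hey1 and Heyl had none in the table used. Each runs 5′ to 3′ on the gene's own strand, and capitals mark TGGGAA, the core bound by Rbpj, or its reverse complement TTCCCA. The Hes5 promoter is chr4:154960673-154960972 on the + strand and the Notch3 promoter is chr17:32166841-32167140 on the - strand.
Hes5: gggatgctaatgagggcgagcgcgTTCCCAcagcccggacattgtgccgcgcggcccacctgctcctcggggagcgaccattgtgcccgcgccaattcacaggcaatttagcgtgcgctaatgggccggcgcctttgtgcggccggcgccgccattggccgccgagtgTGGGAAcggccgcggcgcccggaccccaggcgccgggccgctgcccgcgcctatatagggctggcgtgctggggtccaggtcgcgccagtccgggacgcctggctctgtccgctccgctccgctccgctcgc
Notch3: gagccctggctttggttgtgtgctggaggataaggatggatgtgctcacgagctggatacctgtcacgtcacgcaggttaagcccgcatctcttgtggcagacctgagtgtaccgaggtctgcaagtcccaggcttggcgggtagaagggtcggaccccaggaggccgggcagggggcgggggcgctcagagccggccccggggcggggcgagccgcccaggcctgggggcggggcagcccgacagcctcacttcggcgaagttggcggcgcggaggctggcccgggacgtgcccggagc
The Hes5 window held 2 matches, whose first bases lie 226 and 82 bases before the start, and the Notch3 window held 0. Searched on both strands, TGGGAA occurred in 25.6% of 32851 promoters of this length, and among the 7 genes with a promoter only Hes5 had it. The longer GTGGGAA, which contains TGGGAA, occurred in 6.4% of promoters and again only in Hes5 among the 7. CACNAG, an N-box core that Hes repressors are known to bind, occurred in 42.5% of promoters, among them those of Dll1, Notch1, Notch2 and Notch3. These matches are a description of the letters in a short window.

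In metastatic against primary A1G tumours, Heyl was higher in the metastases and was the only one of the 9 tested Notch genes that passed (1 of 9, 11.1%, against 5.22% of all genes tested). Values of the groups did not overlap for 3 of 9 genes (33.3%, against 13.0% of all genes tested): Heyl and Notch3 were higher and Hes5 lower in every metastatic array. The median log2 difference was 0.35 over the 9 genes and -0.06 over all genes tested. At an unadjusted p under 0.05, 3 of the 9 passed, against 17.8% of all genes tested.

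**Figure D1:**
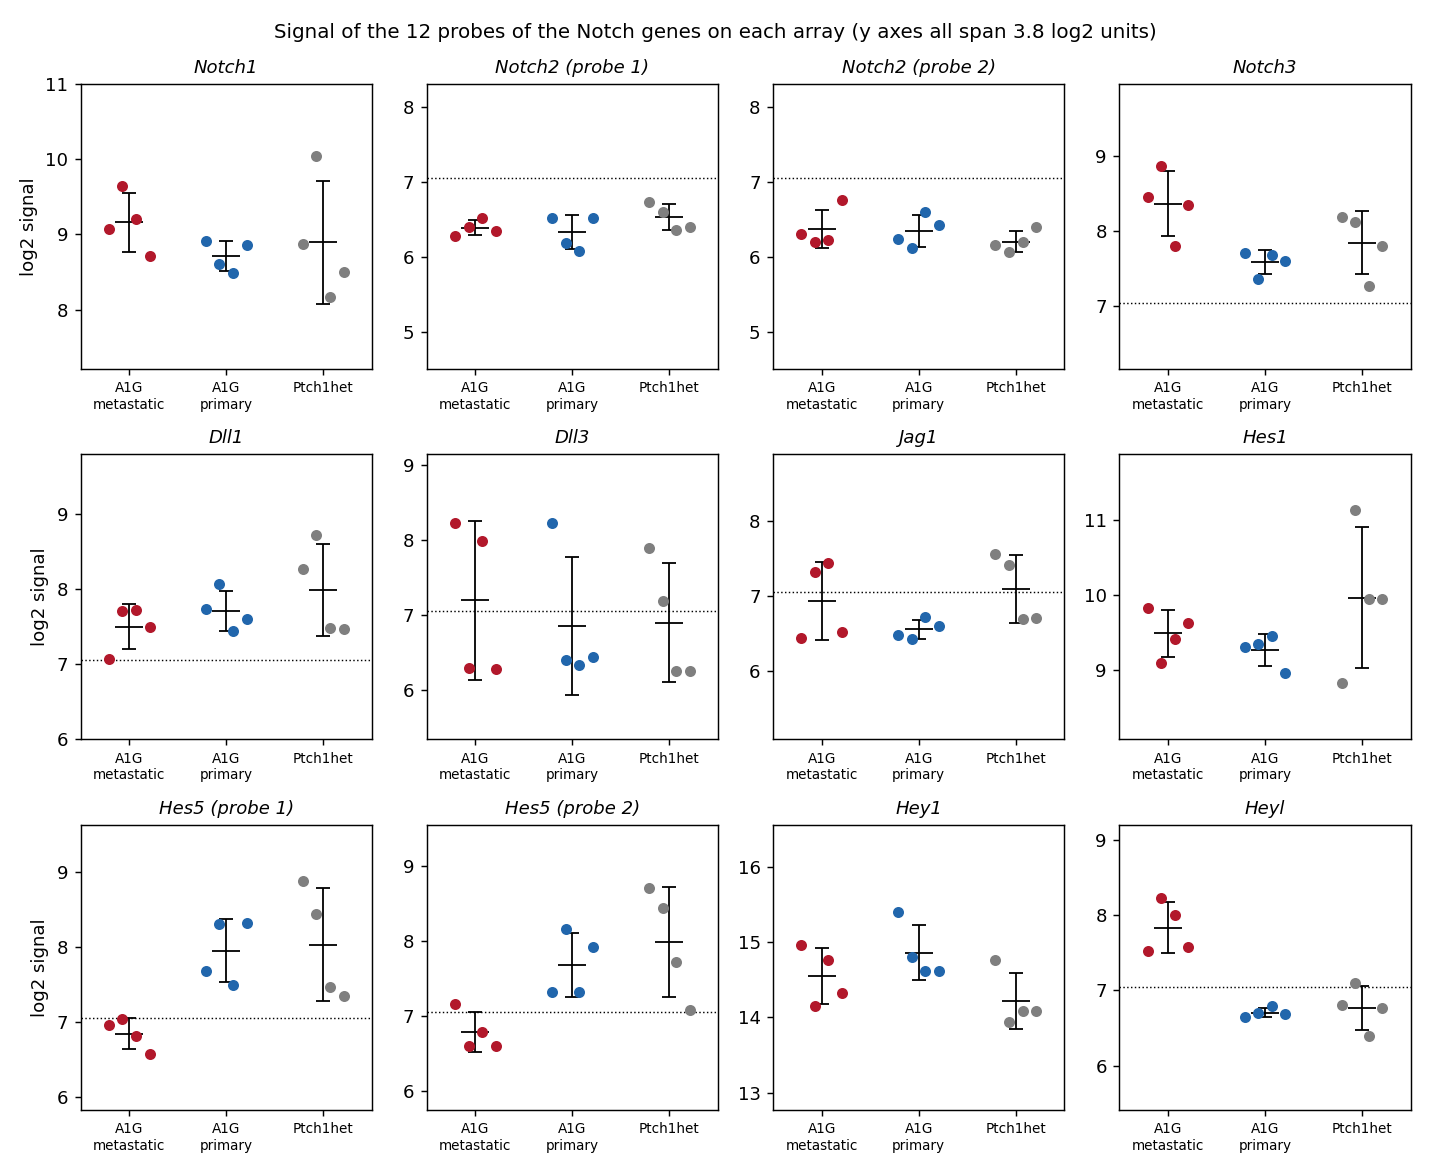
Log2 signal (y axis) of the 12 probes of the Notch genes in A1G metastatic, A1G primary and Ptch1het tumours (x axis, 4 arrays each). Points are arrays in replicate order from left to right, bars the mean ± SD, and the dotted line the array median of 7.05; Heyl lies above that line on all A1G metastatic arrays and on 0 A1G primary arrays, and the first probe of Hes5 shows the reverse.

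Among the receptors, Notch1 (chromosome 2 in the deposited annotation), a receptor of neural progenitors and many other cells, was above the array median on all 12 arrays. It read 9.07, 9.65, 9.21 and 8.71 in A1G metastatic replicates 1 to 4, against 8.91, 8.60, 8.49 and 8.86 in A1G primary replicates 1 to 4. In Ptch1het replicates 1 to 4 it read 8.87, 10.05, 8.17 and 8.50. The groups overlapped, and the spread in Ptch1het came mainly from the high value of replicate 2. The differences were 0.44 (SE 0.33, 95% interval -0.28 to 1.17, adjusted p = 0.540) for metastatic minus primary, -0.18 (adjusted p = 0.850) for A1G primary minus Ptch1het, and 0.26 (adjusted p = 0.641) for metastatic minus Ptch1het, each from limma's fit across all genes.

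Notch2 (chromosome 3) was not well above background on any array by either of its 2 probes. The brighter probe lay between 6.08 and 6.73 and averaged 6.39 ± 0.10 in A1G metastatic, 6.32 ± 0.23 in A1G primary and 6.52 ± 0.18 in Ptch1het tumours (SD, n = 4 each). The other averaged 6.37 ± 0.26, 6.34 ± 0.21 and 6.20 ± 0.14 in the same groups. Since both were at or below the array median on every array, Notch2 was not tested, and no difference was detectable at this signal.

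Notch3 (chromosome 17), the receptor of vascular smooth muscle cells and pericytes, was above the array median on all 12 arrays. It read 8.46, 8.87, 7.81 and 8.35 in A1G metastatic replicates 1 to 4, against 7.71, 7.36, 7.69 and 7.60 in A1G primary replicates. In Ptch1het replicates it read 8.19, 8.12, 7.27 and 7.81. Every metastatic array lay above every A1G primary array, while the Ptch1het arrays overlapped both.

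The mean of Notch3 was 8.37 ± 0.44 in A1G metastatic and 7.59 ± 0.16 in A1G primary tumours (SD, n = 4 each), a difference of 0.78 (SE 0.24, 95% interval 0.27 to 1.29) that missed the threshold (adjusted p = 0.0818, limma). It passed when metastatic replicate 3, the lowest of its group, was left out (0.97, adjusted p = 0.0268), and over the other alternatives the adjusted p lay as high as 0.248. The difference was -0.26 (adjusted p = 0.660) for A1G primary minus Ptch1het and 0.53 (SE 0.24, adjusted p = 0.169) for metastatic minus Ptch1het.

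Among the ligands, 0 of 3 passed in any comparison. Dll1 (chromosome 17), a Delta ligand that activates Notch on neighbouring cells, read 7.07, 7.71, 7.72 and 7.49 in A1G metastatic replicates, against 7.73, 8.06, 7.44 and 7.60 in A1G primary replicates. Ptch1het replicates read 8.27, 8.72, 7.48 and 7.47, so that replicates 1 and 2 were the highest of all 12 arrays and replicates 3 and 4 lay among the A1G tumours. The differences were -0.21 (adjusted p = 0.741) for metastatic minus primary, -0.28 (adjusted p = 0.686) for A1G primary minus Ptch1het and -0.49 (adjusted p = 0.262) for metastatic minus Ptch1het.

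Dll3 (chromosome 7), a divergent Delta protein known as an inhibitor of Notch in the signal-receiving cell, was above the array median on 5 of 12 arrays, spread over all groups. It read 8.23, 6.29, 7.99 and 6.28 in A1G metastatic replicates 1 to 4, against 8.23, 6.40, 6.33 and 6.44 in A1G primary replicates, and 7.89, 7.19, 6.26 and 6.26 in Ptch1het replicates. Replicate 1 was the highest of its group in all 3 groups. The SE of its difference, 0.56 for metastatic minus primary (0.35, adjusted p = 0.799), was the widest among the 9 genes. The other differences were -0.05 (adjusted p = 0.984) for A1G primary minus Ptch1het and 0.30 (adjusted p = 0.760) for metastatic minus Ptch1het.

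Jag1, a ligand of the Jagged family, was dim: 2 of 4 A1G metastatic, 0 of 4 A1G primary and 2 of 4 Ptch1het arrays were above the array median. It read 6.44, 7.32, 7.43 and 6.52 in A1G metastatic replicates, against 6.47, 6.42, 6.71 and 6.60 in A1G primary replicates. In Ptch1het replicates it read 7.55, 7.41, 6.69 and 6.70. Its differences were 0.38 (adjusted p = 0.498) for metastatic minus primary, -0.54 (unadjusted p = 0.0610, adjusted p = 0.394) for A1G primary minus Ptch1het and -0.16 (adjusted p = 0.724) for metastatic minus Ptch1het.

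Among the target genes, Heyl was higher in metastatic tumours than in both primary groups, Hes5 was lower than in Ptch1het tumours, and Hes1 and Hey1 passed in no comparison. Heyl (chromosome 4), a Hey-family repressor and a target of Notch3 in vascular smooth muscle, read 7.52, 8.23, 8.01 and 7.58 in A1G metastatic replicates 1 to 4. It read 6.64, 6.70, 6.79 and 6.69 in A1G primary replicates and 6.80, 7.10, 6.39 and 6.77 in Ptch1het replicates. All 4 metastatic arrays were above the array median, against 0 of 4 A1G primary and 1 of 4 Ptch1het arrays, and the metastatic group overlapped neither of the others. Heyl thus met the filter of at least 4 arrays only through the metastatic group, so the count above the median is not separate support for the difference.

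The mean of Heyl was 7.84 ± 0.34 in A1G metastatic, 6.70 ± 0.06 in A1G primary and 6.76 ± 0.29 in Ptch1het tumours (SD, n = 4 each). Metastatic minus primary was 1.13 (SE 0.18, 95% interval 0.74 to 1.53, adjusted p = 0.00207, limma). With the dim A1G primary group set to the array median, the means differed 1.73-fold, an estimate and not a lower bound. Metastatic minus Ptch1het was 1.07 (SE 0.18, 95% interval 0.68 to 1.47, adjusted p = 0.00300), where 1 of 4 Ptch1het arrays was above the array median and the Ptch1het mean is not resolved from background. These comparisons share the metastatic arrays. Between the primary tumours, A1G primary minus Ptch1het was -0.06 (95% interval -0.45 to 0.33, adjusted p = 0.918). Heyl passed under each alternative that tested it (adjusted p 0.00141 to 0.0372 against A1G primary and 0.00205 to 0.0447 against Ptch1het). A filter that required signal above the median on all 12 arrays removed the gene.

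**Figure D2:**
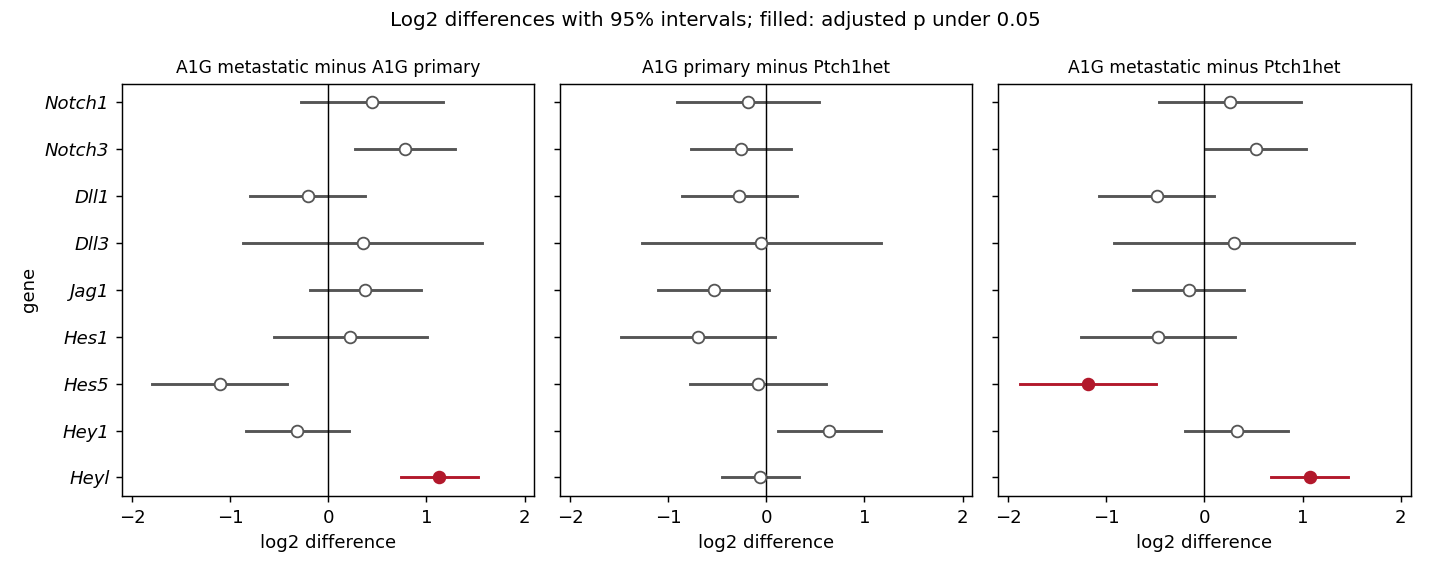
Log2 differences (x axis) of the 9 tested Notch genes (rows), from limma's fit, in panels for the metastatic against the primary A1G tumours, for A1G primary against Ptch1het and for A1G metastatic against Ptch1het. Circles are differences and lines 95% intervals, filled where the adjusted p was under 0.05; Heyl is filled in both comparisons of metastatic tumours, at 1.13 and 1.07, and Hes5 in the comparison with Ptch1het, at -1.19.

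Hes5 (chromosome 4), a Notch target of neural progenitors and glia whose promoter is printed above, has 2 probes. The brighter one, which stood for the gene, read 6.95, 7.03, 6.81 and 6.57 in A1G metastatic replicates 1 to 4. It read 7.68, 8.30, 7.49 and 8.32 in A1G primary replicates and 8.88, 8.43, 7.46 and 7.34 in Ptch1het replicates. Every metastatic array was below the array median, and all 8 primary tumours of both genotypes were above it.

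The mean of Hes5 was 6.84 ± 0.20 in A1G metastatic, 7.95 ± 0.43 in A1G primary and 8.03 ± 0.75 in Ptch1het tumours (SD, n = 4 each). Against Ptch1het, Hes5 fell by 1.19 in metastatic tumours (SE 0.32, 95% interval -1.88 to -0.50, adjusted p = 0.0360, limma). With the dim metastatic group set to the array median, the means differed 1.97-fold, an estimate and not a lower bound. That call was lost without metastatic replicate 1 (0.0533), 2 (0.0717), 3 (0.0601) or 4 (0.0933), without Ptch1het replicate 1 (0.0826) or 2 (0.0806), with metastatic replicates 1 and 4 alone (0.133), and in a fit of only the 8 arrays of both groups (0.0645). Against A1G primary, the difference was -1.11 (SE 0.32, 95% interval -1.80 to -0.42) and missed the threshold (adjusted p = 0.0695). In a fit of only those 8 arrays it passed, with a replicate block (adjusted p = 0.0147) and without one (0.0134). A1G primary minus Ptch1het was -0.08 (adjusted p = 0.941).

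The second Hes5 probe read 7.15, 6.59, 6.78 and 6.59 in A1G metastatic replicates, against 7.31, 8.16, 7.32 and 7.91 in A1G primary replicates and 8.70, 8.44, 7.71 and 7.07 in Ptch1het replicates. It kept metastatic and A1G primary arrays apart, while metastatic replicate 1 lay above Ptch1het replicate 4. Adjusted over the 24443 probes tested one by one, its difference was -0.90 (adjusted p = 0.148) against A1G primary and -1.20 (adjusted p = 0.0350) against Ptch1het.

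Hes1 (chromosome 16), a Notch target that also responds to other signals, read 9.83, 9.10, 9.42 and 9.63 in A1G metastatic replicates, against 9.31, 9.35, 9.45 and 8.96 in A1G primary replicates. In Ptch1het replicates it read 8.83, 11.13, 9.95 and 9.95, with both the lowest and the highest of the 12 arrays in that group. Its differences were 0.23 (adjusted p = 0.798) for metastatic minus primary, -0.70 (unadjusted p = 0.0761, adjusted p = 0.417) for A1G primary minus Ptch1het and -0.47 (adjusted p = 0.423) for metastatic minus Ptch1het.

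Hey1 (chromosome 3), a Hey-family repressor, was far above the array median everywhere. It read 14.97, 14.15, 14.76 and 14.33 in A1G metastatic replicates, against 15.40, 14.81, 14.62 and 14.62 in A1G primary replicates and 14.77, 13.94, 14.09 and 14.09 in Ptch1het replicates. The groups overlapped. The difference of A1G primary minus Ptch1het was 0.64 (SE 0.24, 95% interval 0.12 to 1.17) and had the smallest p of the 9 genes in that comparison, unadjusted 0.0200 and adjusted 0.302 by limma. Metastatic minus primary was -0.31 (adjusted p = 0.553) and metastatic minus Ptch1het 0.33 (adjusted p = 0.401).

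In A1G primary against Ptch1het tumours, 0 of 9 Notch genes passed in limma's test (0.0359% of all genes tested did, and 1 of the 9 had an unadjusted p under 0.05, against 13.4% of all). None of the 9 kept the 2 groups apart, against 6.74% of all genes tested, and the median difference was -0.18 over the 9 genes and -0.03 over all. Within Ptch1het, replicates 1 and 2 were the highest pair for 7 of the 9 genes: Notch1, Notch3, Dll1, Dll3, Jag1, Hes5 and Heyl. The same was true of 27.9% of all genes tested. For Hes1 the highest pair was replicates 2 and 3, and for Hey1 replicates 1 and 4.

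In metastatic against Ptch1het tumours, where both genotype and tumour kind differ, Heyl was higher and Hes5 lower (2 of 9, 22.2%, against 9.85% of all genes tested). The same pair were the only ones of the 9 whose groups did not overlap, against 15.7% of all genes tested. The median difference was 0.26 over the 9 genes and -0.08 over all, and 3 of the 9 (33.3%) had an unadjusted p under 0.05, against 27.7% of all genes tested.

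Markers of cells in which Notch3, Heyl and Hes5 are known were set beside them, and some of each list differed between the groups. The summed signal of 9 mural cell markers was 13684, 66328, 9757 and 9143 in A1G metastatic replicates 1 to 4 (linear units), and between 2541 and 4929 in A1G primary and between 2386 and 6162 in Ptch1het tumours. The gene Acta2, smooth muscle actin, made up 72.9% to 88.8% of this sum in A1G metastatic, 38.4% to 63.1% in A1G primary and 37.6% to 72.8% in Ptch1het tumours. Without Acta2, the sum of the other 8 markers overlapped between the groups, at 3149, 7423, 1736 and 2482 in A1G metastatic replicates, 1564 to 2910 in A1G primary and 1489 to 2014 in Ptch1het tumours. Metastatic replicate 2 was the highest of its group for the mural sum, Notch3 and Heyl. Replicate 1 was next for the sum and for Notch3 but was the lowest of its group for Heyl. From highest to lowest, the metastatic replicates ran 2, 1, 4 and 3 for Notch3 and for the sum without Acta2. They ran 2, 1, 3 and 4 for the mural sum with Acta2, and 2, 3, 4 and 1 for Heyl. Replicate 2 was also the highest of its group for the endothelial, peripheral neuron, skeletal muscle and Hox sums. It was not the highest for the Schwann cell, meningeal fibroblast, astrocyte, oligodendrocyte precursor, microglia and macrophage or granule progenitor sums. Without metastatic replicate 2, the values of Heyl were 1.00 (adjusted p = 0.00715) against A1G primary and 0.94 (adjusted p = 0.0106) against Ptch1het. Of 8 tested mural markers in metastatic against primary tumours, 2 rose in limma's test, Pdgfrb (1.55, adjusted p = 0.00139) and Acta2 (3.04, adjusted p = 0.0157), and Cspg4 fell (-0.63, adjusted p = 0.0354). The other 5 did not pass: Des differed by 1.32, Tagln by 1.05, Abcc9 by 0.07, Rgs5, a pericyte marker, by -0.19 and Kcnj8 by -0.34. The Acta2 call was lost without A1G primary replicate 2 (0.0570) and with metastatic replicates 1 and 4 alone (0.0795), and the Cspg4 call without any one of metastatic replicates 2, 3 and 4 or of A1G primary replicates 1, 2 and 4. Tagln and Myh11, which mark smooth muscle, were above the array median on 0 A1G primary arrays, and Myh11 on 0 Ptch1het arrays.

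The summed endothelial markers overlapped, at 5195 to 13735 in A1G metastatic, 5940 to 10280 in A1G primary and 4507 to 8941 in Ptch1het tumours, with Erg above the median on 0 arrays. Of 9 tested in metastatic against primary tumours, 2 rose, Emcn (1.15, adjusted p = 0.0157) and Cdh5 (0.79, adjusted p = 0.0439), and the Cdh5 call was lost in 14 of 20 alternatives, among them without any one of metastatic replicates 1, 2 and 4 or of the 4 A1G primary replicates (adjusted p up to 0.138). The Emcn call was lost without metastatic replicate 2 (0.0546), without A1G primary replicate 4 (0.0524) and with metastatic replicates 1 and 4 alone (0.0759). The other 7 endothelial markers did not pass: Pecam1 differed by 1.04, Flt1 by 0.92, Tek by 0.51, Esam by 0.46, Tie1 by 0.17, Kdr by -0.24 and Cldn5 by -1.04. Beside Hes5, the summed oligodendrocyte precursor markers were 9548 to 18264 in A1G metastatic tumours, 21231 to 27677 in A1G primary and 15115 to 26181 in Ptch1het tumours, and of 7 tested, 5 fell against A1G primary and 2 against Ptch1het, where the sums overlapped. Astrocyte markers overlapped, at 16092 to 43649, 23807 to 48795 and 15959 to 52525 in the same groups, and 1 of 9 fell, the glutamate transporter Slc1a3 (-1.32, adjusted p = 0.0415, lost in 9 of 20 alternatives, among them without any one of metastatic replicates 2, 3 and 4 or of A1G primary replicates 1, 2 and 4, with adjusted p up to 0.403). The other 8 astrocyte markers did not pass against A1G primary in limma's test. Of these, 3 were higher: Gja1 (1.44, adjusted p = 0.0912), S100b (0.78, adjusted p = 0.401) and Gfap (0.01). For Gja1 and S100b every metastatic array lay above every A1G primary array, and S100b was above the array median on 0 A1G primary arrays. The rest were lower: Aqp4 (-2.40, adjusted p = 0.232), Aldh1l1 (-0.66), Aldoc (-0.43), Fabp7 (-0.41) and Slc1a2 (-0.07). The part of these cells in the values of Heyl, Notch3 and Hes5 was not tested. Nor was the part of peripheral neurons, Schwann cells and meningeal fibroblasts, whose marker sums, given above, did not overlap between metastatic and primary tumours.

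**Figure D3:**
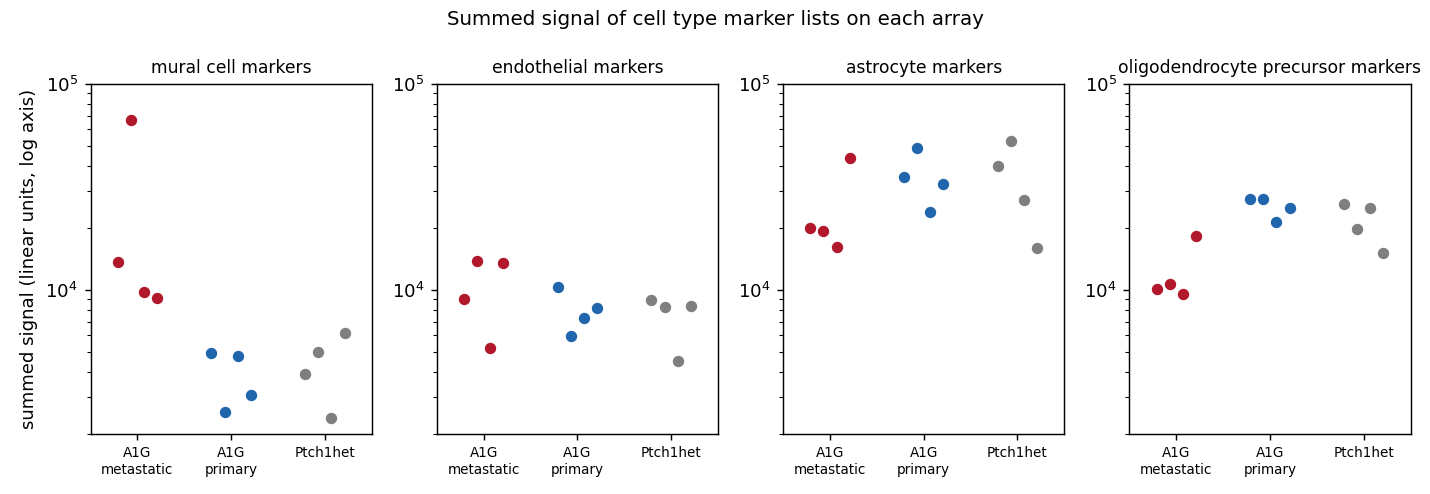
Summed linear signal (y axis, log scale) of the mural cell, endothelial, astrocyte and oligodendrocyte precursor markers in A1G metastatic, A1G primary and Ptch1het tumours (x axis). Points are arrays in replicate order from left to right; all 4 A1G metastatic arrays lie above the others for mural markers, at 9143 to 66328, a sum of which Acta2 alone makes up 72.9% to 88.8% there and which overlaps between the groups without it.

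Of 48 other genes of the pathway, 45 had a probe and 38 were tested. The nuclear partner Rbpj (3 probes, the brightest between 5.73 and 6.48) and the receptor glycosyltransferase Lfng (means 6.57 in A1G metastatic, 6.76 in A1G primary and 6.68 in Ptch1het tumours) were above the array median on 0 arrays, as were Hes2 and Hes3, and Rbpjl and Adam10 were above it on 1 each. None of these was tested, and a signal this dim does not show that the RNA was absent. In metastatic against primary A1G tumours 0 of 38 passed in limma's test, against 5.22% of all genes tested. At an unadjusted p under 0.05 there were 6 (15.8%, against 17.8% of all genes tested), and the median difference was -0.09. With a replicate block in a fit of only these 8 arrays, 3 passed, Hey2, Kat2b and Numbl, and with a block over all 12 arrays 2 passed, Numbl and Rfng. Between A1G primary and Ptch1het tumours 0 of 38 passed, against 0.0359% of all genes tested. At an unadjusted p under 0.05 there were 9 (23.7%, against 13.4% of all genes tested), and the median was 0.06.

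**Figure D4:**
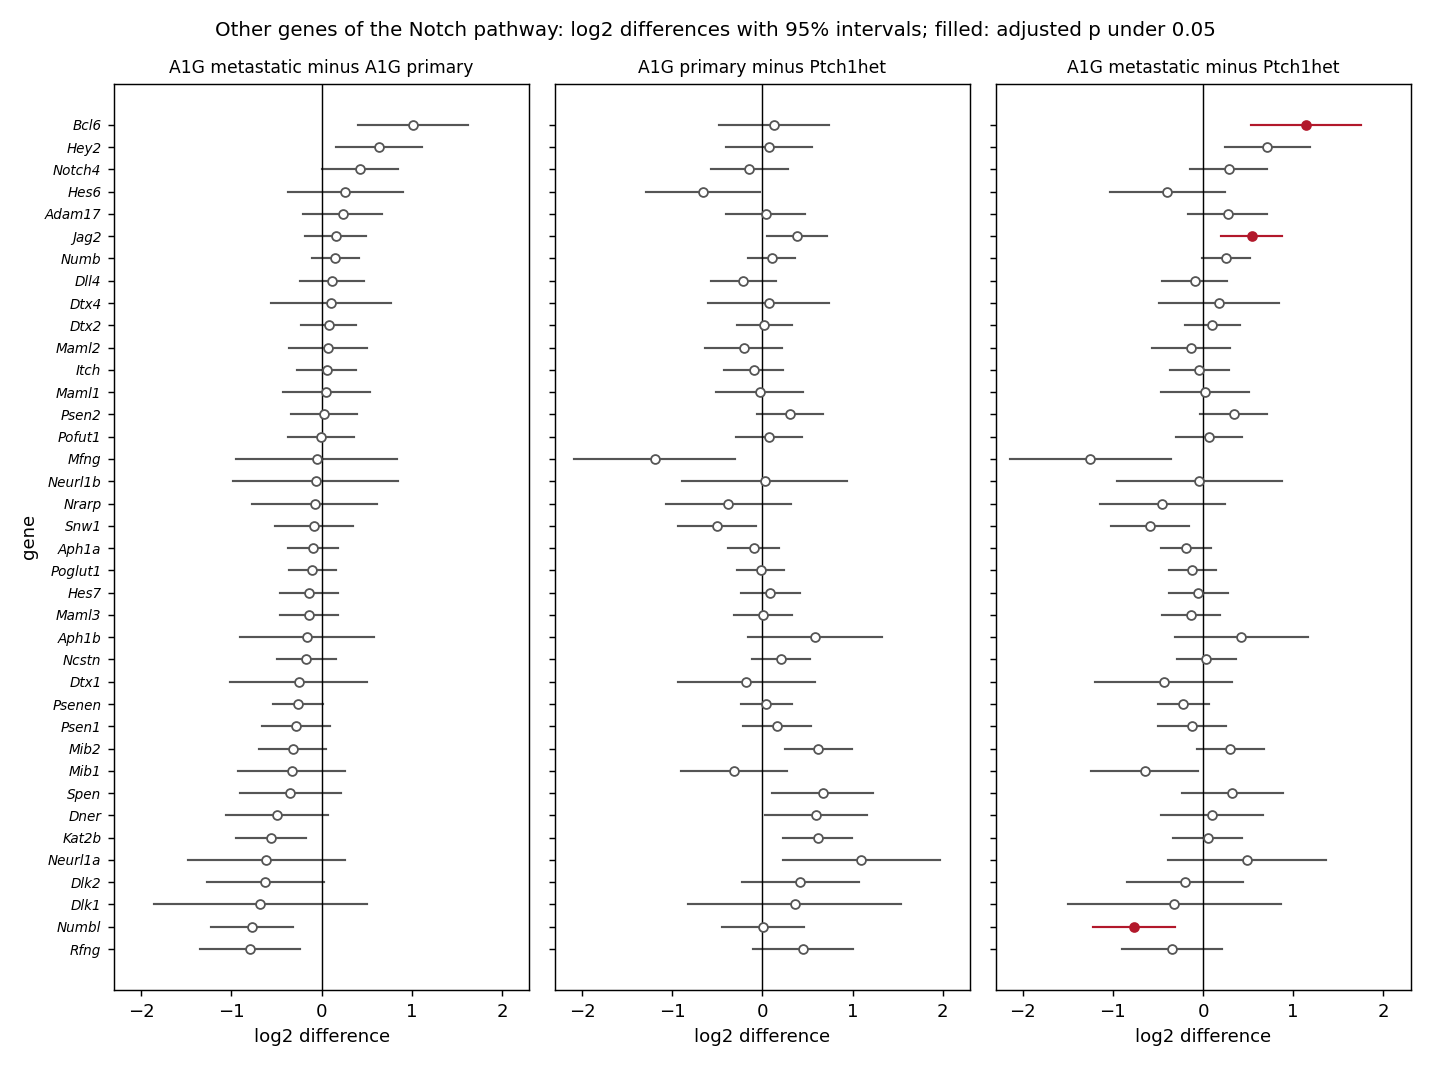
Log2 differences (x axis) of the 38 other Notch pathway genes tested (rows, sorted by A1G metastatic minus A1G primary) in the 3 comparisons. Circles are differences and lines 95% intervals, filled where the adjusted p was under 0.05; the filled genes are Bcl6, Jag2 and Numbl, all for A1G metastatic minus Ptch1het.

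In metastatic against Ptch1het tumours 3 of 38 passed (7.89%, against 9.85% of all genes tested), 2 higher and 1 lower (median -0.04). With all arrays 7 of 38 (18.4%) had an unadjusted p under 0.05, against 27.7% of all genes. None passed in limma's test without metastatic replicate 2, metastatic replicate 4 or Ptch1het replicate 4. Bcl6, a repressor known to displace a Mastermind coactivator from the Hes5 promoter in neural progenitors, read 10.05, 10.98, 10.11 and 10.63 in A1G metastatic replicates 1 to 4, against 9.46, 9.65, 9.26 and 8.84 in Ptch1het replicates and 9.36, 8.92, 9.28 and 10.17 in A1G primary replicates. It was 2.21-fold higher than in Ptch1het (1.14, SE 0.28, adjusted p = 0.0247) and differed by 1.01 from A1G primary (adjusted p = 0.0605). The call against Ptch1het was lost without metastatic replicate 2 (0.0821) or 4 (0.0668), without Ptch1het replicate 3 (0.0528) or 4 (0.0554), and with metastatic replicates 1 and 4 alone (0.123).

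Jag2, a Jagged ligand, read 7.20, 7.55, 7.17 and 7.35 in A1G metastatic replicates, against 7.05, 6.69, 6.55 and 6.82 in Ptch1het replicates and 6.92, 7.06, 7.24 and 7.43 in A1G primary replicates. It was higher than in Ptch1het by 0.54 (SE 0.16, adjusted p = 0.0455), a call lost in 12 of 18 alternatives (adjusted p 0.0351 to 0.183), among them without any one of metastatic replicates 1, 2 and 4 or of Ptch1het replicates 2, 3 and 4. Numbl, a relative of the Notch antagonist Numb, read 9.02, 8.38, 8.33 and 8.29 in A1G metastatic replicates, against 9.32, 9.04, 9.02 and 9.70 in Ptch1het replicates. It fell by 0.76 (adjusted p = 0.0381), but its other probe differed by 0.13, and the call was lost in 8 of 19 alternatives (adjusted p 0.0136 to 0.319), among them without any one of metastatic replicates 2, 3 and 4 or of Ptch1het replicates 1 and 4. It was -0.32 with the mean of its probes.

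Hes6, a Hes-family member known to oppose Hes1, averaged 11.09 ± 0.31 in A1G metastatic, 10.83 ± 0.27 in A1G primary and 11.49 ± 0.70 in Ptch1het tumours (SD, n = 4 each). It passed in no comparison (0.26 with adjusted p = 0.699, -0.66 with 0.363 and -0.39 with 0.407 for metastatic minus primary, A1G primary minus Ptch1het and metastatic minus Ptch1het).

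The genes whose pattern over the 12 arrays was nearest to Heyl, by root mean square difference of mean-centred log2 signal among 16723 genes, were Gm7665 (0.18), Zfhx3 (0.18) and Kank4 (0.20). Zfhx3, a zinc finger homeobox gene, averaged 10.83 in A1G metastatic, 9.57 in A1G primary and 9.57 in Ptch1het tumours, and Kank4 8.83, 7.53 and 7.79. The genes nearest to Hes5 were farther from it, D430041B17Rik (0.36), Pbx3 (0.38) and Chst7 (0.39). Pbx3, a homeobox gene, averaged 8.41 in A1G metastatic, 9.27 in A1G primary and 9.48 in Ptch1het tumours.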

How the data were processed

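Total RNA from Trizol homogenates was DNase-treated and turned into biotinylated cRNA for Illumina arrays, per the labels' protocols. For 45281 probes the authors deposited linear intensity, already normalized between arrays as judged from equal medians, by a method not given in the sources used here. A second deposited table has 24 per-array columns that match no sample label and were not used; only its probe annotation was. The chip of each array is therefore unknown, and chip as a batch was not tested.

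With limma 3.58.1 (R 4.3.3), intensities were corrected by normexp (offset 50), quantile normalized and put on the log2 scale. Probes above the array median on at least 4 of 12 arrays were kept (24443, 54.0%), and the probe with the highest mean stood for its gene. One model with 3 groups was fitted to all 12 arrays (lmFit, eBayes), and p-values were adjusted by Benjamini-Hochberg over 16724 genes. The fit was also run on simulated data, drawn independently for each gene and array with planted changes. Those data held no pairs and no batch, so they cannot show how the fit behaves where these are present. Precision is limited by the number of arrays and by dim signal.

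The Notch genes and all lists were chosen with earlier results of these data known. Named were all 10 of these genes, the other pathway genes called in a comparison with Rbpj, Hes6 and Lfng, the 3 genes nearest in pattern to each called gene, and the cell type markers beside a result. Hey2, Kat2b, Rfng, Mfng and Snw1, and the pathway genes too dim to test, were named after their values were seen. Results of 1 gene of the pathway list are not reported here. Replicate numbers were checked as pairs. Deviations of A1G metastatic and A1G primary arrays of the same number correlated at 0.45, 0.17, 0.21 and 0.27, all above 0.1. For metastatic replicate 2, the highest correlation with an A1G primary array of another number was 0.174, against 0.167 for its own number. Pairs were taken from the data and not from a label, and only in the alternatives with a replicate block. The main fit had no block, so its p-values do not use pairs. In the other comparisons, correlations of the same number were not all above 0.1. Alternatives varied the background correction, normalization, offset, filter, probe choice, arrays fitted, block, variance trend and replicates; the block in a fit of only 8 arrays was chosen after seeing the data.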

Additional observations from a re-analysis of the deposited data

Results flagged for a closer look

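Of 36 groups of 4 arrays examined (12 probes in 3 groups), 1 held an array that stood far from the others, where chance gives about 1 in 20. For Dll3 in A1G primary tumours, replicate 1 read 8.23 on the log2 scale and the nearest of the others 6.44, a gap of 0.944 of the group's whole range and above Dixon's critical value for groups of this size. The other 3 A1G primary arrays were below the array median of 7.05. Replicate 1 was also the highest for Dll3 in A1G metastatic (8.23) and in Ptch1het tumours (7.89).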

How the results depend on the processing

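Limits: 4 arrays per group, dim probes and the unknown chip. With probes required above the array median on all 12 arrays, 0 Notch genes passed in metastatic minus A1G primary and 0 in metastatic minus Ptch1het (limma), because Heyl, Hes5, Dll3 and Jag1 were then not tested. In metastatic minus A1G primary, 2 passed (Hes5 and Heyl) in a fit of only those 8 arrays, and 2 with a replicate block in the same fit; leaving out 1 replicate gave 1 to 2. In metastatic minus Ptch1het, 1 passed (Heyl) with only those 8 arrays and 1 with metastatic replicates 1 and 4 alone; leaving out 1 replicate gave 1 to 2. The replicate block over all 12 arrays left the calls of these 9 genes as they were: Hes5 had adjusted p = 0.0524 against A1G primary and 0.0273 against Ptch1het. In A1G primary minus Ptch1het, 0 of the 9 passed in every setting run. For the other pathway genes in metastatic minus Ptch1het (3 passed), 5 passed with a replicate block over 12 arrays (Bcl6, Hey2, Mfng, Numbl and Snw1), although same-numbered metastatic and Ptch1het arrays did not deviate together, 1 with only those 8 arrays (Bcl6) and 0 with metastatic replicates 1 and 4 alone. In metastatic minus A1G primary (0 passed), 1 passed with only those 8 arrays (Kat2b) and up to 1 with a replicate left out. Over all settings, 22 differences changed sign, none of them called. With metastatic replicates 1 and 4 alone, Jag1 was at -0.07 against A1G primary and Notch1 at -0.01 against Ptch1het. Leaving out 1 replicate moved metastatic minus Ptch1het over -0.04 to 0.63 for Dll3 and -0.33 to 0.00 for Jag1 (the values nearest the turn without metastatic replicate 1). It moved A1G primary minus Ptch1het over -0.31 to 0.20 for Hes5 (0.01, 0.05, 0.07 and 0.20 above 0), -0.51 to 0.28 for Dll3 (0.05, 0.09, 0.10, 0.12 and 0.28), -0.42 to 0.20 for Notch1, -0.18 to 0.05 for Heyl, -0.08 to 0.15 for Numbl (-0.03, -0.03, -0.06, -0.07 and -0.08 below 0) and -0.11 to 0.30 for Bcl6 (-0.11 and -0.02 below 0). The cause was not tested.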
